A study of Mus musculus with 4 samples.

Results

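Messenger RNA of 36 genes of sterol and fatty acid synthesis was examined in mouse skin cells of the bulge, the stem cell niche of the resting hair follicle. The members were listed by name, along the order of the pathways: 18 enzymes of cholesterol synthesis, 13 enzymes of fatty acid synthesis, elongation and desaturation, and 5 regulators or carriers of sterol. All 36 were found among the 55536 genes of the count table, and all 36 passed the filter on low counts that left 14259 genes for testing. The knockout group consisted of 2 libraries from Alk1 flox/flox mice with Cdh5CreERT2, in which Cre is active after tamoxifen and is driven in endothelium by the Cdh5 promoter. The control group consisted of 2 libraries from littermates without Cre. All mice had a C57BL/6 background, were given intraperitoneal tamoxifen at 100 µg/g on postnatal day 17, and cells were taken on postnatal day 20. Alk1 is the endothelial receptor of bone morphogenetic proteins encoded by Acvrl1, so the bulge cells measured here are not the cells in which Cre is driven. The labels do not say whether controls carried the floxed allele, how many mice went into a library or how bulge cells were isolated. The question of the study, from its title, is how the endothelial receptor bears on the timing of follicle stem cell activation.

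Cells make cholesterol from acetyl-CoA through mevalonate, farnesyl diphosphate, squalene and lanosterol, and fatty acids from acetyl-CoA through malonyl-CoA. Transcription of both routes is driven by the sterol regulatory element binding proteins, of which SREBP-2 (Srebf2) acts mainly on the sterol genes and SREBP-1 (Srebf1) mainly on the fatty acid genes. These factors are held in the endoplasmic reticulum with the escort protein Scap and the retention protein Insig1 while sterol is plentiful, and they are cleaved and enter the nucleus when sterol is scarce. In skin these lipids serve the epidermal barrier, and the sebaceous gland, attached to the upper follicle, is a particularly lipid-producing tissue.

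Acvrl1 had 390 and 483 counts in knockouts and 361 and 718 counts in controls, which is no check of the deletion, since it was made in other cells. The libraries held 22261317 and 21237843 counts in knockouts 1 and 2 and 16326906 and 29130974 counts in controls 1 and 2. Values are CPM, edgeR's counts per 1e6 of the TMM-scaled library size. Bulge markers were present at high levels. Krt15, a keratin of bulge cells, measured 36017 and 34786 CPM in knockouts and 29088 and 34397 CPM in controls, and all 12 listed bulge markers had counts. Across all 14259 genes, edgeR's quasi-likelihood test with Benjamini-Hochberg adjustment called 1 gene higher in knockouts (0.00701% of genes tested) and 0 lower (0%). No member was called in that test. At an unadjusted edgeR p under 0.05, 11 of the 36 members were lower in knockouts and 1 was higher, where 5.94% of all tested genes were lower and 4.8% higher at that bound. DESeq2, run as an alternative, called Stard4 as lower and Fads1 as higher, where it called 0.426% of its genes lower and 0.161% higher. The labels number the mice of each library without saying whether a number is 1 animal or a pool, and a p-value here covers only the spread among these libraries.

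Members were called under few of the alternatives, and those called more genes in all than the test above. Without a filter on low counts 10 members were called lower and 1 higher, where 1.11% of all genes were lower and 0.678% higher. With the replicate number as a block, 3 were called lower and 1 higher, where 0.568% of all genes were lower and 0.175% higher. Without knockout 1, 3 were called lower and 1 higher, where 0.174% of genes were lower and 0.261% higher. The other edgeR alternatives called 0 members. There the share of genes called higher was 0.00701% with RLE normalization, 0.00856% with the stricter filter, 0.014% after removal of a trend on length and GC content, 0.0135% without control 1 and 0.00674% without control 2. Without knockout 2 it was 0.0135% in either direction.

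Promoters of members were searched for boxes known from SREBP targets. RefSeq start sites on GRCm38.p6 were available for 29 of the 36 members, in 37 windows of 250 bases before the start; Fdps, Fdft1, Sqle, Scd1, Scd2, Fads1 and Stard4 had no entry. Searched on both strands, CCAAT, the box bound by NF-Y, a known partner of SREBPs, was found in 14 of 18 windows of sterol enzymes (77.8%), in 6 of 12 windows of fatty acid enzymes, in 4 of 7 windows of regulators (57.1%) and in 33.8% of all 32817 RefSeq windows of this length. The GC box GGGCGG, bound by Sp1, was found in 15 of 18 windows of sterol enzymes (83.3%), 6 of 12 of fatty acid enzymes, 5 of 7 of regulators (71.4%) and 32.7% of all windows. The E-box CACGTG was found in 3 of 18 windows of sterol enzymes (16.7%) and 1 of 12 of fatty acid enzymes (8.33%). It was found in 2 of 7 windows of regulators (28.6%), which belong to only 4 genes, and in 6.02% of all windows. The sterol element TCACNCCAC was found in 1 member window, that of Hmgcs1, and in 1.05% of all windows. These are matches of letters, and the sets were not matched for GC content. The windows of 7 members are shown because they carry these boxes next to genes of both arms and the feedback regulators described further on. The letters run 5′ to 3′ on the coding strand, and capitals mark CCAAT boxes, written ATTGG where they lie on the other strand, and, in Hmgcs1 alone, the sterol element. In Fasn a pair of boxes, 1 on each strand, overlaps and forms 1 run of capitals. Hmgcs1 (chr13:119690101-119690350, plus strand) was chosen after its sterol element was seen. The others are members of low p in each group whose window holds a searched box, but the choice did not strictly follow p. Nsdhl, whose window also holds such boxes, is not shown, though its unadjusted edgeR p (0.029) was below that of Idi1 (0.033). For Elovl5 that p was 0.077. Start sites are those of RefSeq and can differ from the gene starts given further on. The windows shown besides Hmgcs1 are Lss (chr10:76531355-76531604, plus), Idi1 (chr13:8885356-8885605, plus), Fasn (chr11:120824548-120824797, minus), Elovl5 (chr9:77917115-77917364, plus), Insig1 (chr5:28071162-28071411, plus) and Srebf2 (chr15:82147019-82147268, plus).
Hmgcs1: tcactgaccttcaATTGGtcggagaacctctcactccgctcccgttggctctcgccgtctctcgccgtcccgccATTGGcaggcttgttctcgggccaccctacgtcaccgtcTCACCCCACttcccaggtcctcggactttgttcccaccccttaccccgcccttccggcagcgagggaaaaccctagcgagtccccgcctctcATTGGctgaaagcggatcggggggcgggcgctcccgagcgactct
Lss: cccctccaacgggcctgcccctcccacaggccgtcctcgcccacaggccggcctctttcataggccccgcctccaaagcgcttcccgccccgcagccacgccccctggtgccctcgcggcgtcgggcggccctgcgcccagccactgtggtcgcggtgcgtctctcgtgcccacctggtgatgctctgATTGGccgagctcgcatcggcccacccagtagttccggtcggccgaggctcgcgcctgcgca
Idi1: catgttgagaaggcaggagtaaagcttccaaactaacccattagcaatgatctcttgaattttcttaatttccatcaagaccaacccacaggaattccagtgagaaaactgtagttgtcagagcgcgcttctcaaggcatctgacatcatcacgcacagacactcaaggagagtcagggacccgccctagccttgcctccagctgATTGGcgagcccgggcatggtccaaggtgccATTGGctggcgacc
Fasn: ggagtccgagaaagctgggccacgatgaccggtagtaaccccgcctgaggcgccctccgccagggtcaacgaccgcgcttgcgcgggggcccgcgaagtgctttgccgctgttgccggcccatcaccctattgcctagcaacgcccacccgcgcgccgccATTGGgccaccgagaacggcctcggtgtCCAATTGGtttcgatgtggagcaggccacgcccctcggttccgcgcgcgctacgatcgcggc
Elovl5: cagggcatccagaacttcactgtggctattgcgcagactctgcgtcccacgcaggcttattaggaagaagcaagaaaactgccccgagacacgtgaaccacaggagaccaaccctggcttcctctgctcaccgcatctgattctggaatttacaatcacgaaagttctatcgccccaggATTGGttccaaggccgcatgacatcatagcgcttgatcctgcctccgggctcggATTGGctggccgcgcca
Insig1: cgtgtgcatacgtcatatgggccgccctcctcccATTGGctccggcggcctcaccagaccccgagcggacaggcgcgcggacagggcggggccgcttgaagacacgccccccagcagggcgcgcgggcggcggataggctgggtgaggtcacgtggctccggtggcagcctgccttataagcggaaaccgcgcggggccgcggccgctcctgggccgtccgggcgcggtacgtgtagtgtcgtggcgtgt
Srebf2: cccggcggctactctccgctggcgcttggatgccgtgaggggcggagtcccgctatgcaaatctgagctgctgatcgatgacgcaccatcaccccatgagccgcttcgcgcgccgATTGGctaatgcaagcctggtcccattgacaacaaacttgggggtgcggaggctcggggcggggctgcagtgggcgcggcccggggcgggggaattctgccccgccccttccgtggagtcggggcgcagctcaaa

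Levels of different genes were compared as CPM per kilobase of exon. In the sterol arm the highest was Hmgcs1, HMG-CoA synthase, at a mean of 37.6 in knockouts and 43.2 in controls, followed by the mevalonate pathway kinases Pmvk (21.8 in knockouts, 26.1 in controls) and Mvk (14.9 in knockouts, 20.2 in controls). In the fatty acid arm the highest were Acly, which makes cytosolic acetyl-CoA from citrate (39.0 in knockouts and 47.8 in controls), the elongase Elovl1 (35.7 in knockouts, 44.1 in controls) and the stearoyl-CoA desaturase Scd1 (31.0 in knockouts, 45.2 in controls). The lowest members were Fads2 (0.715 in knockouts, 0.282 in controls) and Fdps (0.367 in knockouts, 0.653 in controls). Fdps makes farnesyl diphosphate, and its level stands far below that of the steps before and after it. Its exons share 1124 bases on the same strand with the gene model Gm43738, which had 0 counts in every library, and how reads of the shared part were counted is not stated, so the level of Fdps is uncertain.

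**Figure D1:**
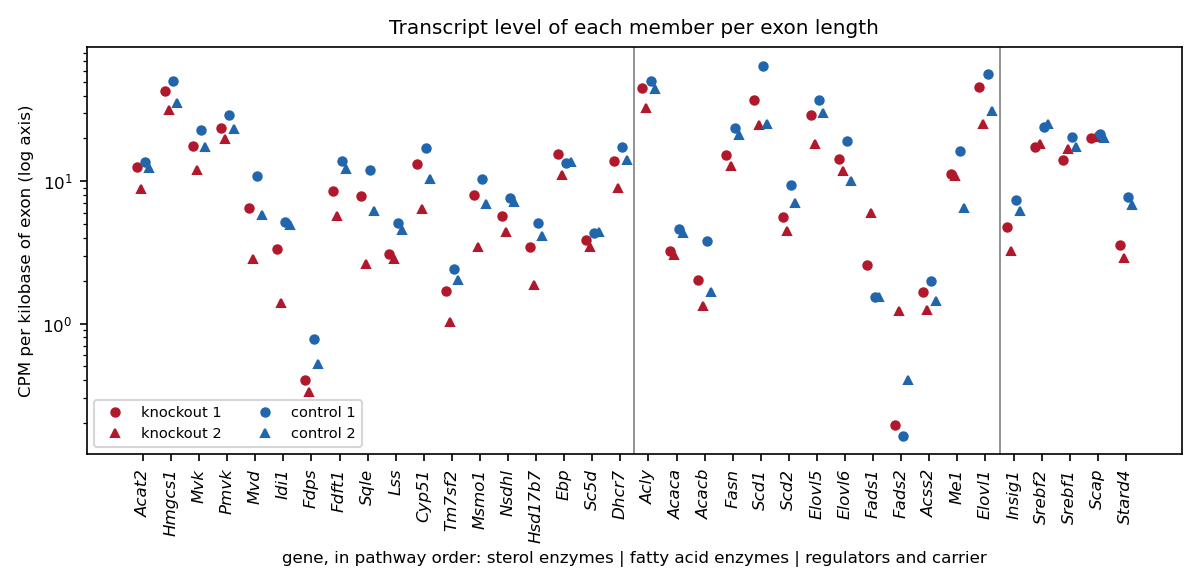
Level of each member in CPM per kilobase of exon (log axis) in each library, in pathway order, with circles for number 1 and triangles for number 2 of each group (red, knockout; blue, control). Hmgcs1, Acly, Elovl1 and Scd1 lie at the top, and Fdps and Fads2 lie lowest.

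By fitted values, every step of the sterol arm was lower in knockouts. For all 18 enzymes edgeR's log2 fold change, knockout over control, was negative, and the median was -0.57, where 52.5% of all tested genes were below 0 and their median was -0.02. In 9 of the 18, both knockout libraries lay below both control libraries, as they did in 23.6% of all tested genes. No single step passed the adjusted test. The median came to -0.19 without knockout 2 and to -0.29 without control 1, so its size rested on these libraries.

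The first steps build mevalonate and its phosphates, and in none of them did both knockouts lie below both controls. Acat2, which joins acetyl-CoA units, measured 32.3 and 22.4 CPM in knockouts and 34.8 and 31.8 CPM in controls. Hmgcs1 measured 199.5 and 146 CPM in knockouts and 233 and 164 CPM in controls, a log2 fold change of -0.20 ± 0.22 (SE; adjusted p = 0.76). Its groups overlapped, and its fold change was 0.01 without knockout 2 and 0.08 without control 1. The kinases Mvk and Pmvk gave -0.44 ± 0.23 and -0.26 ± 0.17, and their groups overlapped as well. Mvd, the decarboxylase that ends the mevalonate steps, measured 12.1 and 5.32 CPM in knockouts and 20.4 and 10.7 CPM in controls, so that knockout 1 lay above control 2 (-0.83 ± 0.46).

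From isopentenyl diphosphate on, several steps separated the groups. Idi1, the isomerase of isopentenyl diphosphate (chromosome 13, 8885501 to 8892451, GRCm38), measured 11.8 and 4.93 CPM in knockouts and 18.1 and 17.4 CPM in controls. The controls lay close together, both knockouts lay below them, and knockout 2 was far below knockout 1. The log2 fold change was -1.08 ± 0.39 (unadjusted p = 0.033, edgeR adjusted p = 0.43). Fdps gave -0.81 ± 0.38, from 1.70 and 1.39 CPM in knockouts and 3.29 and 2.20 CPM in controls, and is uncertain for the reason given above. Fdft1, squalene synthase, which commits farnesyl diphosphate to sterol, measured 36.2 and 24.2 CPM in knockouts and 58.8 and 51.7 CPM in controls. Its groups were well apart, and the log2 fold change was -0.87 ± 0.21 (unadjusted p = 0.0061, edgeR adjusted p = 0.43). Fdft1 (chromosome 14, 63145150 to 63179578) shares 774 exon bases with Ctsb on the other strand, and the strand setting used in counting is not stated.

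Of the 11 sterol enzymes from Fdft1 on, with Fdft1 included, 7 (63.6%) had both knockouts below both controls. This held for 23.6% of all tested genes. Lss, Nsdhl and Hsd17b7, which act after squalene, were among the 7. Lss, which closes squalene epoxide to lanosterol (chromosome 10, 76531588 to 76557138), measured 33.3 and 30.5 CPM in knockouts and 54.8 and 49.4 CPM in controls. The gap between its groups was larger than the spread within either, at a log2 fold change of -0.71 ± 0.13 (unadjusted p = 0.0017, edgeR adjusted p = 0.43). Lss exons span 10787 bases, against a median of 4180 for tested genes, and removing the length and GC trend gave -0.52. Nsdhl and Hsd17b7, which act in removing the methyl groups of lanosterol, gave -0.54 ± 0.19 and -0.79 ± 0.31 (unadjusted p = 0.029 and 0.044). Nsdhl measured 16.2 and 12.6 CPM in knockouts and 21.7 and 20.3 CPM in controls, and Hsd17b7 measured 17.7 and 9.53 CPM in knockouts and 26.0 and 21.1 CPM in controls. Neither gene's groups overlapped. The sterol reductase gene Tm7sf2 gave -0.71 ± 0.30, also without overlap, but shares 532 exon bases with Vps51 on the same strand.

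In Sqle, Cyp51, Msmo1 and Ebp the groups overlapped. Sqle, the squalene epoxidase and a rate-controlling step, measured 44.1 and 14.6 CPM in knockouts and 66.4 and 34.4 CPM in controls, and knockout 1 lay above control 2. Cyp51, the lanosterol demethylase (58.7 and 28.1 CPM in knockouts, 75.3 and 45.8 CPM in controls), and Msmo1, a methylsterol oxidase (48.9 and 21.1 CPM in knockouts, 64.0 and 42.5 CPM in controls), showed the same order of libraries. In each of these 3 genes control 1 was highest, knockout 1 second, control 2 next and knockout 2 lowest. Ebp, a sterol isomerase, gave -0.03 ± 0.19. The late enzymes Sc5d, a desaturase, and Dhcr7, a reductase, had both knockouts below both controls. Sc5d measured 18.8 and 16.8 CPM in knockouts and 21.3 and 21.4 CPM in controls (-0.26 ± 0.16, adjusted p = 0.57). Dhcr7 measured 81.5 and 52.1 CPM in knockouts and 101 and 82.4 CPM in controls, with knockout 1 and control 2 nearly level (-0.46 ± 0.23, adjusted p = 0.51). Knockout 2 was the lowest library for all 18 sterol enzymes, where it was the lowest for 30.5% of all tested genes.

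**Figure D2:**
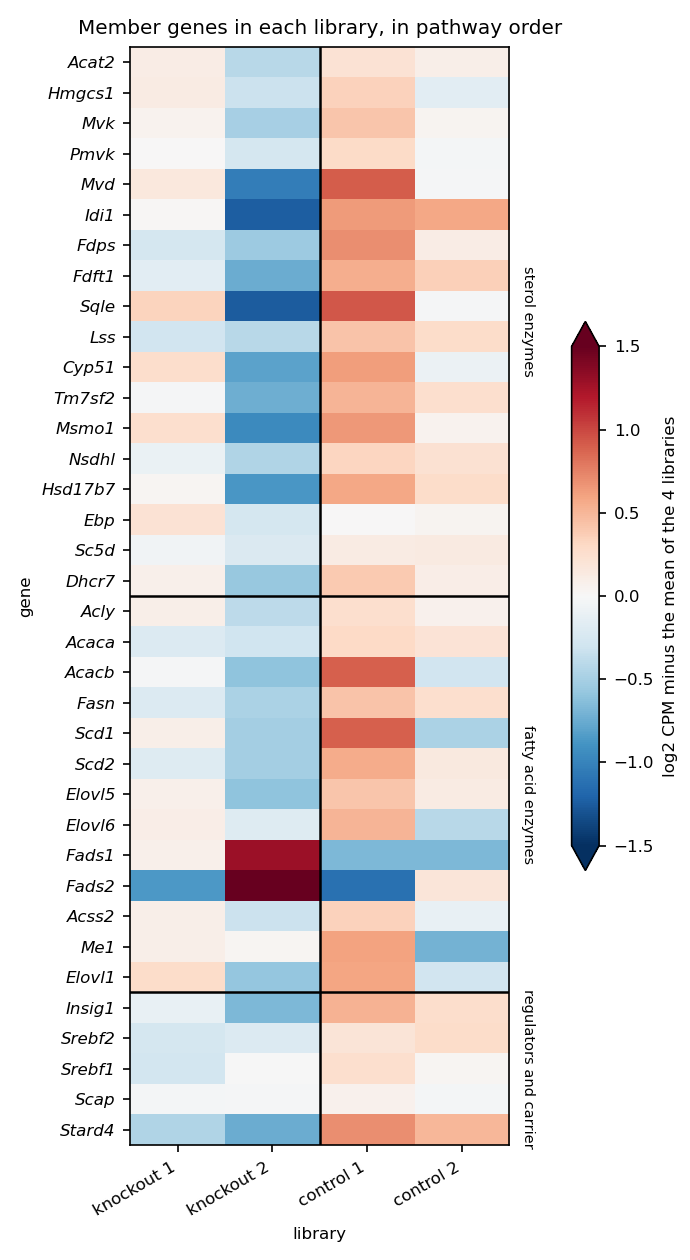
Log2 CPM of each member in each library minus the mean of the 4 libraries (red above, blue below), in pathway order, with the knockout libraries left of the controls. Knockout 2 is the lowest library for all 18 sterol enzymes, while Fads1 and Fads2 are highest in knockout 2.

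By the medians of each library, the regulators and the carrier separated the groups more evenly than the enzymes did. Stard4, a soluble carrier that moves cholesterol between membranes and is itself a target of SREBP-2, measured 19.8 and 16.2 CPM in knockouts and 43.7 and 38.2 CPM in controls (means 18.0 ± 2.6 in knockouts and 41.0 ± 3.9 in controls, SD, n = 2 each). Both knockouts lay far below both controls. Its log2 fold change of -1.18 ± 0.17 had the smallest p of all members (unadjusted p = 0.00034, edgeR adjusted p = 0.36), and DESeq2 called it (adjusted p = 0.00020). Over the alternatives run, its adjusted p ranged from 6.8e-08 to 0.95.

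Insig1, which retains the SREBP complex and is also induced by SREBPs, measured 14.8 and 10.01 CPM in knockouts and 22.9 and 19.2 CPM in controls, a log2 fold change of -0.76 ± 0.24 (unadjusted p = 0.018, edgeR adjusted p = 0.43). Srebf2 (chromosome 15, 82147181 to 82205379) measured 125 and 131 CPM in knockouts and 173 and 182 CPM in controls. The libraries of each group lay close together, and the log2 fold change was -0.47 ± 0.11 (unadjusted p = 0.0057, edgeR adjusted p = 0.43). Removing the trend on exon length and GC content gave -0.34. Srebf1 measured 79.1 and 95.6 CPM in knockouts and 115 and 97.8 CPM in controls; the groups did not overlap, but knockout 2 and control 2 were nearly level (-0.28 ± 0.15, adjusted p = 0.52). Scap measured 150.03 and 151 CPM in knockouts and 161 and 150.1 CPM in controls, with a log2 fold change of -0.04 ± 0.11 that became 0.10 once that trend was removed. In 4 of these 5 genes, all but Scap, both knockouts lay below both controls, as in 23.6% of all tested genes. The median of the 5 was -0.47 and ranged from -0.51 to -0.41 when any 1 library was left out.

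**Figure D3:**
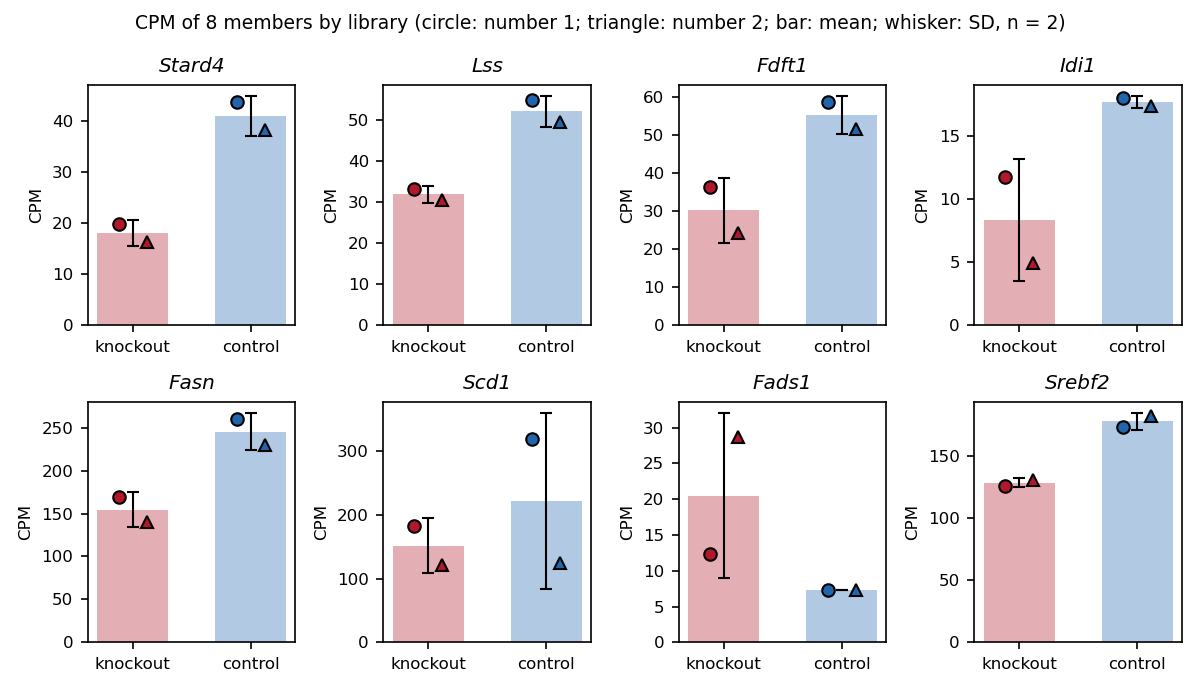
CPM of 8 members by library (circles, number 1; triangles, number 2; bars, group mean; whiskers, SD, n = 2), with knockouts left of controls. Stard4, Lss, Fdft1, Idi1, Fasn and Srebf2 are lower in both knockouts than in both controls, Scd1 overlaps between groups, and Fads1 is higher in both knockouts.

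The fatty acid arm was mixed. Fold changes were negative for 11 of 13 enzymes (median log2 -0.30), and 4 (30.8%) had both knockouts below both controls, as did 23.6% of all tested genes. The 2 above 0 were the desaturases Fads1 and Fads2. The median was -0.20 without knockout 2 and 0.01 without control 1, so the direction of the arm's median rested on control 1.

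Acaca and Fasn, which make malonyl-CoA and palmitate in the cytosol, were lower in both knockouts than in both controls. Acaca, the acetyl-CoA carboxylase of the cytosol (chromosome 11, 84129672 to 84401651), measured 55.0 and 51.6 CPM in knockouts and 78.5 and 73.5 CPM in controls (-0.51 ± 0.12, unadjusted p = 0.0051, edgeR adjusted p = 0.43). Its exons span 17074 bases, against a median of 4180 for tested genes, and removing the length and GC trend gave -0.27. Fasn, fatty acid synthase (chromosome 11, 120805846 to 120824547), measured 169 and 140.0 CPM in knockouts and 260.4 and 230.0 CPM in controls. Its log2 fold change was -0.67 ± 0.15 (unadjusted p = 0.0035, edgeR adjusted p = 0.43), or -0.46 with that trend removed. Both genes showed little spread within a group and a gap between the groups.

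The groups overlapped in the suppliers of acetyl-CoA and NADPH and in Acacb, which also makes malonyl-CoA. Acly measured 240.0 and 172 CPM in knockouts and 269 and 236 CPM in controls (-0.29 ± 0.19). Acss2, which makes acetyl-CoA from acetate, gave -0.24 ± 0.24, and Me1, the cytosolic malic enzyme that yields NADPH, gave -0.03 ± 0.39. Acss2 shares 395 exon bases with Gss on the other strand. Gss had 696 to 1340 counts, against 266 to 436 for Acss2. Me1 measured 43.7 and 42.0 CPM in knockouts, between the 62.7 and 25.2 CPM of controls. Acacb, the carboxylase of the mitochondrial surface, measured 19.4 and 12.9 CPM in knockouts and 36.6 and 16.1 CPM in controls (-0.70 ± 0.41).

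Among the enzymes that desaturate or elongate fatty acids, Scd2 and Elovl5 were lower in both knockouts than in both controls. Scd2, a stearoyl-CoA desaturase, measured 30.6 and 24.5 CPM in knockouts and 51.2 and 38.8 CPM in controls (-0.70 ± 0.19, unadjusted p = 0.010, edgeR adjusted p = 0.43). Scd1 measured 182 and 121 CPM in knockouts and 319 and 124 CPM in controls, so that its controls differed from each other more than the group means did (-0.54 ± 0.43). Scd1, Scd2 and Scd3 are close paralogs, and reads shared between them could have been split in counting. Scd3, not a member, measured 3.72 and 2.73 CPM in knockouts and 17.6 and 7.55 CPM in controls (-1.95 ± 0.45, edgeR adjusted p = 0.43; DESeq2 adjusted p = 0.0060). The elongases of polyunsaturated, saturated and very long chains, Elovl5, Elovl6 and Elovl1, gave -0.50 ± 0.24, -0.15 ± 0.30 and -0.30 ± 0.36. Of these 3, only Elovl5 had both knockouts (103 and 64.7 CPM) below both controls (131 and 107 CPM).

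Fads1, the delta-5 desaturase of polyunsaturated fatty acids, ran against the other members. It measured 12.4 and 28.6 CPM in knockouts and 7.36 and 7.35 CPM in controls. Both knockouts lay above both controls, as in 21.3% of all tested genes, and knockout 2 was far above knockout 1. The log2 fold change was 1.48 ± 0.40 (unadjusted p = 0.0094, edgeR adjusted p = 0.43; DESeq2 adjusted p = 0.028, range over the alternatives 1.1e-06 to 0.98). Without knockout 2 the log2 fold change was 0.75. Fads2, the delta-6 desaturase, whose gene lies next to Fads1 on chromosome 19 (10062765 to 10101746, against 10182888 to 10196877), was low throughout, at 0.644 and 4.07 CPM in knockouts and 0.539 and 1.32 CPM in controls. Knockout 2 was again the highest library, but knockout 1 lay between the controls, and the fold change of 1.28 ± 0.88 turned to -0.58 without knockout 2.

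**Figure D4:**
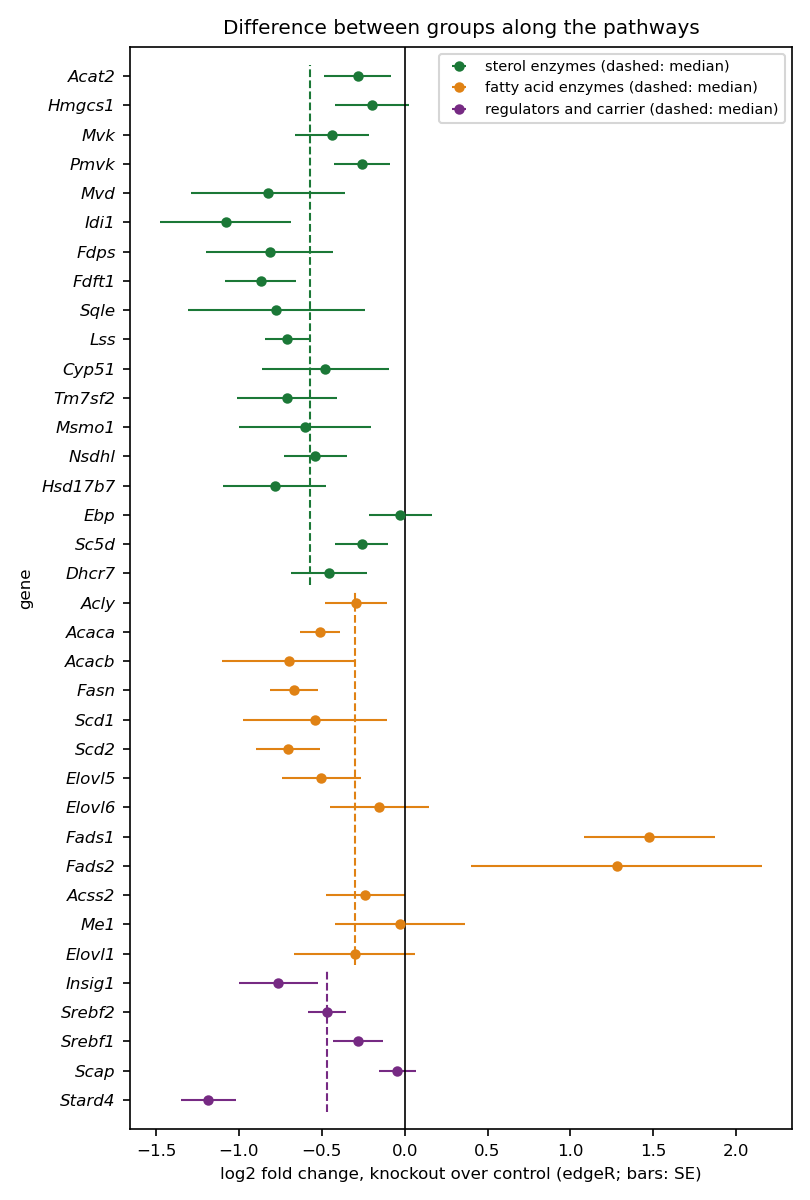
Log2 fold change, knockout over control, of each member with its SE from edgeR, in pathway order (green, sterol enzymes; orange, fatty acid enzymes; purple, regulators and carrier; dashed, median of each group). Of 36 values, 34 lie below 0, and Fads1 and Fads2 lie above it.

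Set side by side, the sterol median was lower than the fatty acid median by 0.27 on the log2 scale (-0.57 against -0.30). With the stricter filter, which left out Fads2, the fatty acid median was -0.41 and the difference -0.17. Both medians come from the same 4 libraries, and the difference between them was 0.02 with its sign turned when knockout 2 was left out, when the medians were -0.19 and -0.20. In deviations from the mean of the 4 libraries (log2 CPM, prior count 2), the sterol enzymes had medians of 0.04 and -0.55 in knockouts and 0.46 and 0.09 in controls. The fatty acid enzymes had 0.07 and -0.40 in knockouts and 0.43 and -0.11 in controls. The regulators and carrier had -0.26 and -0.21 in knockouts and 0.26 and 0.26 in controls. The enzymes were thus spread within each group by about as much as between groups, while the medians of the regulators and carrier were nearly level within each group. Single genes among them were not all level. Knockout 2 was at 67.8% of knockout 1 in Insig1, 81.7% in Stard4, 101% in Scap, 104% in Srebf2 and 121% in Srebf1.

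The order of libraries within groups was shared with genes of other skin cells and with G2/M genes of the cell cycle. In 29 of 36 members number 1 exceeded number 2 in both groups, as in 23.8% of all tested genes. The same order was found in 17 of 24 listed G2/M genes (70.8%) and in 2 of 12 bulge markers (16.7%). Sebaceous gland markers (all 15 with counts) summed to 685 and 746 CPM in knockouts and 918 and 457 CPM in controls, and 11 of 14 tested ones had that order. Their library medians were 0.18 and -0.67 in knockouts and 1.08 and -0.48 in controls. Markers of interfollicular differentiation (12 of 12 with counts) summed to 8519 and 3966 CPM in knockouts and 12961 and 4441 CPM in controls, with medians of 0.34 and -0.55 in knockouts and 0.96 and -0.65 in controls. None of the tested markers of either list had both knockouts below both controls, where 23.6% of all tested genes did. In both lists the median of control 1 lay far above that of control 2, which itself makes such a separation of groups less likely. The numbers only name libraries within a group. The part of sebaceous and differentiated cells in the members' values was not tested, and in bulk RNA fewer cells of a type and less RNA per cell cannot be told apart. For adipocytes, another lipid-making cell of skin, Adipoq and Retn were at 0 in every library, and the 10 markers summed to 13.6 and 22.7 CPM in knockouts and 23.8 and 18.6 CPM in controls.

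Members differed in how far they shared this order. In 7 of them control 2 was between 38.9% and 54.2% of control 1: Mvd, Sqle, Acacb, Scd1, Elovl6, Me1 and Elovl1. The next was Cyp51, at 60.8%. In Stard4, Lss, Fdft1, Fasn, Acaca and Srebf2, control 2 was between 87.4% and 105% of control 1. These genes were chosen after their values were seen, and how far the controls lie apart itself bears on whether groups can overlap.

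**Figure D5:**
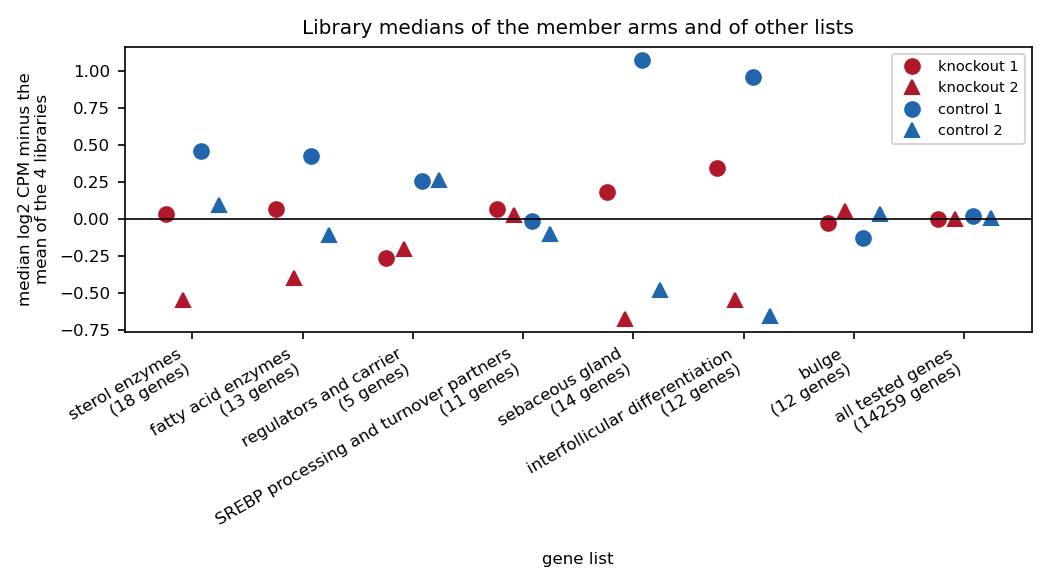
Median over each list of log2 CPM minus the mean of the 4 libraries, for knockouts (red) and controls (blue), with circles for number 1 and triangles for number 2. The regulators and carrier lie at -0.26 and -0.21 in knockouts and at 0.26 in both controls, whereas sebaceous and interfollicular lists spread within each group.

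Genes around the pathway were tested in the same fit. Of 11 partners in SREBP processing and turnover, 7 had positive fold changes (median log2 0.13), and none was called by edgeR or DESeq2. Mbtps1, the protease that first cuts SREBPs, gave -0.16 ± 0.13. Of 12 genes of the isoprenoid branch that leaves the pathway at farnesyl diphosphate, 6 were below 0, with a median of 0.02. Icmt, which methylates prenylated proteins, gave -0.25 ± 0.11, and Fnta, a subunit of farnesyltransferase, gave 0.23 ± 0.13. Of 12 genes of endosomal export and esterification of sterol, 8 were below 0, with a median of -0.09. Npc2, which binds cholesterol in lysosomes, measured 270.2 and 275 CPM in knockouts and 201 and 239 CPM in controls (0.31 ± 0.13, adjusted p = 0.47). No gene of the last 2 lists was called by edgeR or DESeq2, and 0 of them had an unadjusted edgeR p under 0.05. At that bound 5.94% of all tested genes were lower and 4.8% higher.

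Receptors and targets of LXR, the sensor of oxidised sterols, cover the export of sterol. The 8 genes had a median of 0.04, with 5 above 0 and none called. Mylip, which marks the LDL receptor for degradation, measured 84.3 and 158 CPM in knockouts and 72.4 and 61.9 CPM in controls (0.86 ± 0.29, unadjusted p = 0.025, adjusted p = 0.43). The sterol exporter Abcg1 measured 7.35 and 18.0 CPM in knockouts and 7.004 and 5.45 CPM in controls (1.03 ± 0.44, named after its values were seen). Abca1, another exporter, measured 156 and 310 CPM in knockouts and 227 and 228 CPM in controls (0.03 ± 0.30). Knockout 2 was the highest library in these 3 of the 8 genes and in none of the other 5.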

How the data were processed

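RNA of bulge cells was sequenced in 4 libraries from polyA-selected, directional preparations, per the labels' protocols. The authors deposited unnormalized gene counts; per the submitters' processing notes, Trim Galore 0.6.0, cutadapt, FastQC, STAR 2.7.0e, DESeq2 1.26.0 and GRCm38 (mm10) were used. Neither the counting tool nor its strand setting or annotation release is stated. All 55536 identifiers matched GENCODE M21, the source of symbols, coordinates and exon lengths. Libraries were compared with edgeR 4.0.16 (R 4.3.3): filterByExpr, TMM, robust quasi-likelihood test, Benjamini-Hochberg adjustment over 14259 genes, threshold 0.05. SE is the log2 fold change over the root of the F statistic. Alternatives were RLE normalization, no filter, a filter of 50 counts in 2 libraries, DESeq2 1.42.0, the replicate number as a block, removal of a spline trend (4 degrees of freedom) on exon length and GC content, and each library left out. Promoter windows came from RefSeq. Members and lists were chosen with earlier results of these data known. Values are given in full for members with an unadjusted p under 0.05, for regulators and for the 3 highest of each arm; from other lists, the gene of smallest p and that of highest CPM were named, and others were named after their values were seen. For 1 list the gene of smallest p is not reported here.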

Additional observations from a re-analysis of the deposited data

How the results depend on the processing

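Without a filter on low counts 11 members and 430 genes were called, with the replicate number as a block 4 and 106, with DESeq2 2 and 80, and after removal of the length and GC trend 0 and 2. Leaving out 1 library gave 0 to 4 members and 1 to 65 genes; the highest numbers came without knockout 1, with Fdft1, Idi1 and Stard4 lower and Fads1 higher. The block called Fdft1, Sqle and Stard4 as lower and Fads1 as higher, but the labels do not give the numbers as a pairing, and the deviations of the number 1 libraries from their group means had a correlation of 0.12 across genes. The adjusted p of Stard4 was 6.8e-08 with no filter, 0.0015 with the block, 0.040 without knockout 1 and 0.00020 with DESeq2, and 0.21 to 0.95 in the other alternatives. With 1 library left out, the medians ranged from -0.89 to -0.19 (sterol enzymes), from -0.56 to 0.01 (fatty acid enzymes) and from -0.51 to -0.41 (regulators and carrier). Their difference, sterol minus fatty acid, ranged from -0.33 to 0.016, and members whose remaining knockouts all lay below the remaining controls numbered 17 to 33; with fewer libraries this is met more easily. With the stricter filter the sterol minus fatty acid difference was -0.17. Removal of that trend gave a regulators' median of -0.34. The sign of Me1 turned with the block (0.10) and with the trend removed (0.00084), and that of Scap with the trend removed (0.10). Leaving out 1 library gave ranges that crossed 0 for 10 members: Hmgcs1 from -0.44 to 0.078, Ebp from -0.29 to 0.20, Fads2 from -0.58 to 2.13, Me1 from -0.53 to 0.77, Elovl1 from -0.79 to 0.20, Acacb from -1.16 to 0.0058, Scd1 from -1.05 to 0.29, Elovl6 from -0.52 to 0.38, Acss2 from -0.46 to 0.0067 and Scap from -0.069 to 0.0050. The cause of these shifts was not tested. Of 359 refits of single members, 321 kept their sign and their side of the threshold, 21 passed it anew and 17 turned sign. The 2 libraries per group limit the test.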

Other observations

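Genes of fatty acid oxidation, the route opposed to synthesis, had positive fold changes in 10 of 14 tested genes, with a median of 0.18 and none called by edgeR or DESeq2. The other 4 (28.6%) were below 0, where 52.5% of all tested genes were. At an unadjusted edgeR p under 0.05, 2 were higher and 0 lower, where 4.8% of all tested genes were higher and 5.94% lower. Acads, the short-chain acyl-CoA dehydrogenase, measured 33.4 and 37.8 CPM in knockouts and 23.9 and 24.1 CPM in controls (0.57 ± 0.14, unadjusted p = 0.0066, adjusted p = 0.43), with no overlap of groups. Hadha, of the mitochondrial trifunctional protein, measured 288 and 402 CPM in knockouts and 276 and 234 CPM in controls (0.44 ± 0.19). Both knockouts lay above both controls in 6 of the 14 genes, as in 21.3% of all tested genes.

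Genes of triglyceride and phospholipid synthesis had a median of 0.01 over 12 tested genes, with 6 on either side of 0. Agpat2, an acyltransferase that makes phosphatidic acid, measured 41.8 and 35.9 CPM in knockouts and 27.2 and 32.1 CPM in controls (0.39 ± 0.16, unadjusted p = 0.047, adjusted p = 0.46). Pcyt1a, of phosphatidylcholine synthesis, gave 0.07 ± 0.14. Of 12 other tested genes of elongation and desaturation, 8 (66.7%) were below 0 (median -0.18), where 52.5% of all tested genes were. At an unadjusted edgeR p under 0.05, 2 of them were lower (Scd3 and Elovl7) and 1 higher (Degs1). At that bound 5.94% of all tested genes were lower and 4.8% higher. Elovl7, an elongase, measured 19.5 and 12.2 CPM in knockouts and 45.3 and 23.5 CPM in controls (-1.11 ± 0.36, adjusted p = 0.43), and Degs1, a ceramide desaturase, measured 268 and 357 CPM in knockouts and 225 and 229.97 CPM in controls (0.46 ± 0.16, adjusted p = 0.43). The 24 listed G2/M genes were all below 0, with a median of -0.92, and 21 of them had both knockouts below both controls, as in 23.6% of all tested genes. Top2a, a topoisomerase of dividing cells, measured 13.4 and 10.01 CPM in knockouts and 26.6 and 19.1 CPM in controls (-0.96 ± 0.24, adjusted p = 0.43).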
